A study of Mus musculus with 9 samples.

Results

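The histone genes of the replication-dependent type were 49 genes of 20258 with a symbol on the array, read by 53 probes. They were chosen by name alone: the RefSeq accession of a probe had to map to a current symbol of the H1f, H2ac, H2bc, H3c or H4c families, or to an older symbol beginning with Hist1h to Hist4h. The members were 10 linker histone H1 genes, 13 H2A genes, 10 H2B genes, 8 H3 genes and 8 H4 genes, of 70 such genes in the RefSeq table. H2ac15, H4c9, H4c12 and H4c14 had 2 probes each. Of the 49 genes, 43 were well above background on all 9 arrays, H1f10 on 5, H2bc22 on 4 and H1f7 on 2, and H1f0, H1f3 and H2bc23 on none. The 46 detected on at least 2 arrays entered the fitted tests. The rule also takes in 7 genes that are known from other work as replication-independent (H1f0, H1f10) or germ cell histones (H1f6, H1f7, H1f8, H2ac1, H2bc1), and these are described apart where it matters, which leaves 42 genes, 40 of them tested.

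The samples were thymocytes of C57BL/6 mice sorted by CD4, CD8 and TCRβ, with 1 array per group. The conditional knockout (CKO) mice carried Brd1flox/flox and Tie2-Cre, and the control mice carried Brd1+/+ and Tie2-Cre, so that every group has the Cre transgene. Tie2-Cre is a Cre recombinase driven by a promoter that is active in endothelial and blood-forming cells, so deletion is not limited to T cells. The groups were CD4+CD8+ double positive (DP), CD4 single positive (CD4SP) and CD8 single positive (CD8SP) cells of both genotypes at 8 weeks, CD8SP cells of both genotypes at 14 weeks from mice that also carried the OT-I receptor, and, from 8-week CKO mice alone, CD4SP cells that lacked surface TCRβ. The OT-I transgene gives T cells a receptor that recognises an MHC class I ligand. The labels do not say whether animals were pooled.

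Replication-dependent histone genes supply the proteins that package newly made DNA. They lie in clusters, are transcribed mainly in S phase, and give mRNAs that end in a stem-loop in place of a poly(A) tail. The stem-loop is bound by Slbp, and NPAT, Casp8ap2 and the U7 snRNP act at the clusters to make and trim the transcripts, so that histone mRNA falls away when replication stops. H3 with H4 and H2A with H2B form the core of the nucleosome, and H1 binds the linker DNA between nucleosomes. In the thymus, cells divide before and at the onset of the DP stage, and most DP and single positive cells are at rest.

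Short sequences before the start of these genes show what the classes share apart from their names. RefSeq promoter windows (build GRCm38.p6) were found for 44 of the 49 members, and the 250 bases before each start were searched on both strands, overlapping matches included. The octamer element ATTTGCAT, known as the element of H2B promoters bound by the transcription factor Oct-1, was present before 5 of 7 H2B and 5 of 12 H2A genes and before 0 of 5 H1, 6 H3 and 7 H4 genes (members set apart not counted), against 1.81% of 27025 genes in the table. The motif AAACACA, known from H1 promoters, was present before 4 of 5 H1 genes, against 7.2% of all genes. CCAAT was present before 34 of 44 members (77.3%) against 37.5% of all genes, and TATAAA before 21 of 44 members (47.7%) against 14.3%. These matches describe letters in a window and do not show that a factor is bound. The sequences printed here are the last 150 bases before the start of H1f5 and H2bc18, genes with large differences between the genotypes, with matches to the 4 motifs in capitals, and of H3c14 and H3c15, a pair of neighbouring copies whose probes gave opposite differences and whose windows hold none of the motifs. Over the 250 bases before the start, H3c15 and H3c14 share an unbroken run of 231 bases.
H1f5, chr13:21780626-21780775, minus strand: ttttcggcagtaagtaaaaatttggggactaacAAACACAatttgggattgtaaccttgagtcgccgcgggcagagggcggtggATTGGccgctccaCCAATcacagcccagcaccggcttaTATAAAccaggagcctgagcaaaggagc
H2bc18, chr3:96269550-96269699, plus strand: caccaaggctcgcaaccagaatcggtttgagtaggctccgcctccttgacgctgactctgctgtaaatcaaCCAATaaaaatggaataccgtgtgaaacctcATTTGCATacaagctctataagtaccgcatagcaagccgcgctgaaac
H3c14, chr3:96246535-96246684, plus strand: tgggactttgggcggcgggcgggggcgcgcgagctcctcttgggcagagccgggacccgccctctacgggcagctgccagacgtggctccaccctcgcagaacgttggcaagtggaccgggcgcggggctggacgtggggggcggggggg
H3c15, chr3:96239128-96239277, minus strand: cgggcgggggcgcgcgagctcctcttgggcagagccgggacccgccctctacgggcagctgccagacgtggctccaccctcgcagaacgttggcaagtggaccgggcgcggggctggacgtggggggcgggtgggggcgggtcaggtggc

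Of 55537 probes, 39.0% to 45.9% per array exceeded background clearly (the scanner's call of well above background), and the 75th percentile of the signal was 87.4 to 140 intensity units. A level is the log2 of the signal divided by that percentile, and every difference is given on the log2 scale. A level cannot be compared between probes. The Cd4 and Cd8a levels followed the sorting gates, with Cd8a at 4.60 to 5.46 on the DP, CD8SP and OT-I arrays and at -2.11 to -0.32 on the arrays of CD4SP cells with and without surface TCRβ. The Brd1 probe did not separate the genotypes: its level was -0.98 to -0.33 on the 5 CKO arrays and -1.37 to -0.79 on the 4 control arrays, and where this probe lies relative to the deleted part is not known here. The arrays lay on 2 slides: the CKO array of CD8SP cells and both OT-I arrays on slide 2, and all others, the control array of CD8SP cells among them, on slide 1, so that slide and genotype cannot be told apart in the CD8SP pair, whereas the DP, CD4SP and OT-I pairs each lie on 1 slide.

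Most histone genes kept a common profile over the 9 arrays. Around each gene's own mean, the median of the 40 genes was highest on the OT-I control (1.01) and CD8SP control (1.01) arrays, followed by DP control (0.68), TCRβ-negative CKO (0.58), DP CKO (0.41) and CD8SP CKO (-0.13) arrays. The lowest were CD4SP control (-0.73), CD4SP CKO (-1.16) and OT-I CKO (-1.23) arrays. Of the 40 genes, 20 had their highest level in CD8SP control cells and 24 their lowest in OT-I CKO cells. Neighbours in this order overlap gene by gene: the middle part of the genes (25th to 75th percentile) spanned 0.51 to 1.35 in OT-I control cells and 0.61 to 1.39 in CD8SP control cells. With 1 array per group, the spread of an array within its group is not known, and in sorted bulk RNA fewer cells of a type and less RNA per cell cannot be told apart.

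**Figure D1:**
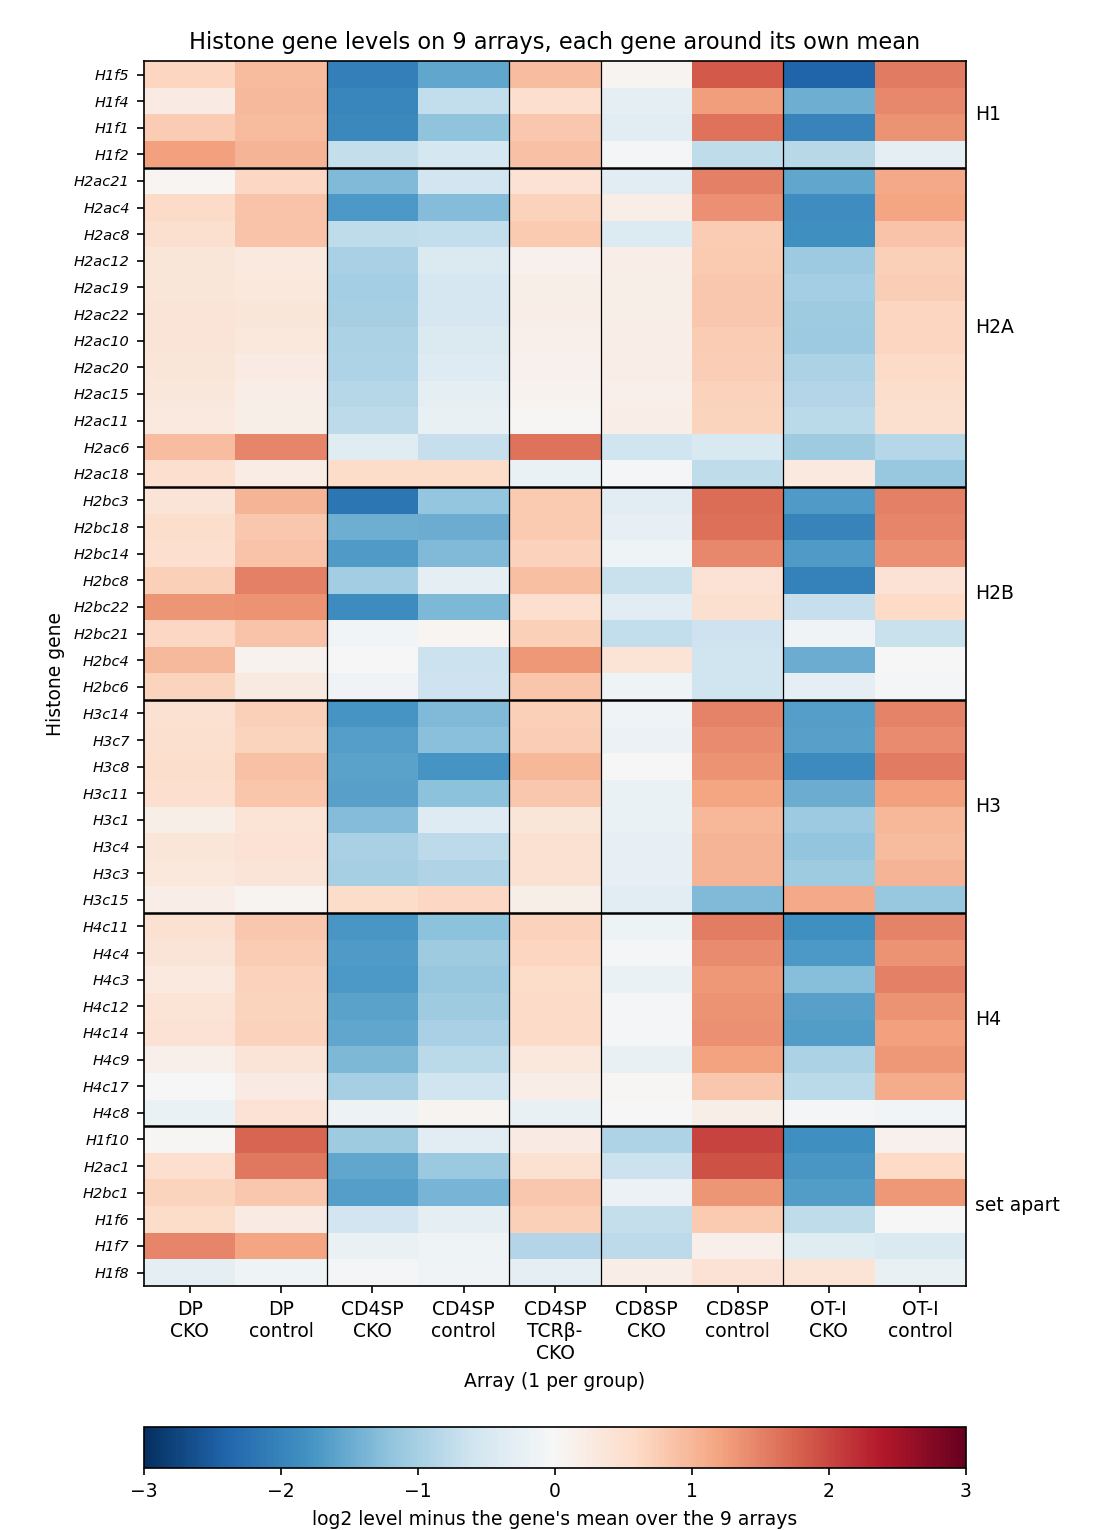
Level of the 46 tested histone genes (rows, by class, the 6 tested genes set apart at the bottom) on 9 arrays (columns, 1 per group), as log2 level minus the gene's own mean over the 9 arrays. Most rows are high in CD8SP and OT-I control cells and low in CD4SP and OT-I CKO cells, and H3c15 and H2ac18 run the other way.

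The first comparison asked how histone genes differ with the Brd1 genotype over the 4 populations measured in both. The fitted genotype difference, which is the mean of the CKO minus control differences of the 4 pairs, was below 0 for 39 of 46 histone genes and above 0 for 7, with a median of -1.08 against -0.044 over all 20284 genes tested. No member passed the test: limma called 0 higher (0.0394% of all genes tested) and 0 lower (0.242%). At an unadjusted p below 0.05, 22 members were lower and 0 higher, where 5.05% of all genes were lower. The lowest adjusted p was 0.184, for H1f10. Without the OT-I pair the median of the members was -0.52. The error in this test is the spread of the genotype difference between populations, and that spread was large for the histone genes, as the pairs show.

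The CKO minus control difference was small in DP and CD4SP cells and large in CD8SP and OT-I CD8SP cells. In the DP pair, 0 of 46 members were more than 2-fold higher (4.13% of all genes) and 2 more than 2-fold lower (5.31%), namely H1f10 and H2ac1, with a median of -0.23 against 0.15 over all genes. In the CD4SP pair, 0 of 43 were higher (4.24%) and 2 lower (5.43%), namely H1f4 and H2bc3, with a median of -0.44 against -0.012. In the CD8SP pair, 2 of 44 were higher (6.73%), namely H2bc4 and H3c15, and 27 lower (10.1%), with a median of -1.27 against -0.12. In the OT-I pair, 2 of 45 were higher (8.68%), namely H2ac18 and H3c15, and 34 lower (13.8%), with a median of -2.12 against -0.086. Each of these is a difference between 2 arrays, with no replicate and no test. The OT-I arrays share a slide and the CD8SP pair spans both slides, and the 2 pairs also differ in receptor and age. What the difference between these pairs comes from was not tested.

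The difference between these genotype effects, CD8SP and OT-I CD8SP against DP and CD4SP, was tested in a fit with an interaction term that left 2 residual degrees of freedom. Its median over the 46 members was -1.25 against -0.14 over all genes, and 40 of 46 were below 0. limma called 0 members higher and 0 lower, as it did for 0% of all 20284 genes in each direction. At an unadjusted p below 0.05, 21 members were lower and 1 higher, where 10.5% and 4.51% of all genes were, and the lowest adjusted p of a member was 0.315. With the slide as a block, which takes up the CD8SP pair, the median was -1.77.

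**Figure D2:**
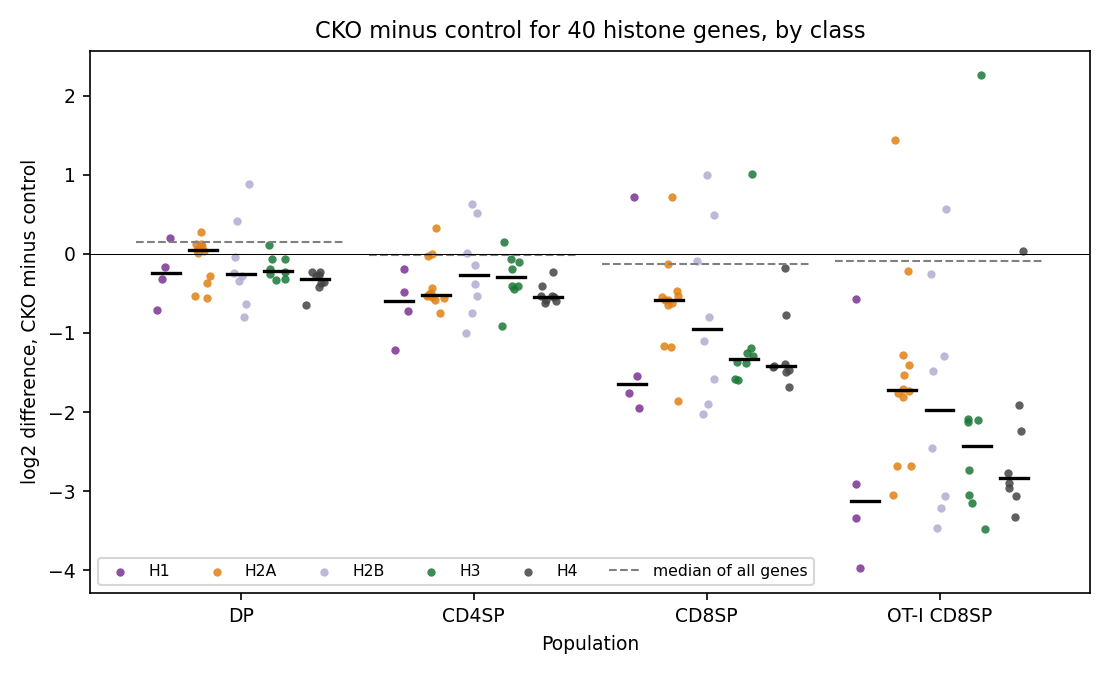
CKO minus control difference (log2, vertical axis) of the 40 tested histone genes in each of the 4 pairs (horizontal axis), 1 point per gene, by histone class, with the class median as a black bar and the median of all genes as a dashed grey line. The class medians lie between -0.32 and 0.045 in DP cells, each below the median of all genes (0.15), and between -3.12 and -1.72 in the OT-I pair.

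The linker histones of the somatic S phase type differed most among the classes. The median genotype difference of the 4 tested H1 genes was -1.57, with a median of -1.65 in the CD8SP and -3.12 in the OT-I pair. H1f5 had a level of 8.28 in CKO and 8.59 in control DP cells, 5.59 in CKO and 6.07 in control CD4SP cells, 7.73 in CKO and 9.49 in control CD8SP cells, 5.24 in CKO and 9.21 in control OT-I CD8SP cells, and 8.57 in TCRβ-negative CKO cells. The control arrays of CD8SP and OT-I CD8SP cells were the highest, and OT-I CKO was the lowest. The CKO minus control difference of H1f5 was -0.31 in the DP, -0.48 in the CD4SP, -1.76 in the CD8SP and -3.97 in the OT-I pair, and the fitted genotype difference was -1.63 (SE 0.63, adjusted p = 0.431). For H1f4 the level was 8.47 in CKO and 9.19 in control DP cells, 6.27 in CKO and 7.49 in control CD4SP cells, 7.93 in CKO and 9.47 in control CD8SP cells, 6.76 in CKO and 9.67 in control OT-I CD8SP cells, and 8.71 in TCRβ-negative CKO cells. In each of the 4 pairs the CKO array was the lower, with differences of -0.71 in the DP, -1.22 in the CD4SP, -1.54 in the CD8SP and -2.90 in the OT-I pair, and the fitted difference was -1.59 (SE 0.38, adjusted p = 0.245). H1f1 had a fitted difference of -1.54 (SE 0.53, adjusted p = 0.388), with pair differences of -0.17 in the DP, -0.72 in the CD4SP, -1.95 in the CD8SP and -3.34 in the OT-I pair. H1f2, another S phase linker histone, did not follow: its level was 3.03 in CKO and 2.83 in control DP cells, 1.104 in CKO and 1.29 in control CD4SP cells, 1.77 in CKO and 1.06 in control CD8SP cells, 0.97 in CKO and 1.53 in control OT-I CD8SP cells, and 2.70 in TCRβ-negative CKO cells. Its fitted genotype difference was 0.041 (SE 0.26, adjusted p = 0.959), and the DP arrays and the TCRβ-negative array were the highest.

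The median genotype difference of the 12 H2A genes was -0.70, the smallest of the 5 classes, and 7 of them had very bright probes. Without these 7 the median of the other 5 was -1.06, and the smallest class median was then that of H2B, -0.97. H2ac4 gave 10.96 in CKO and 11.24 in control DP cells, 8.66 in CKO and 9.09 in control CD4SP cells, 10.58 in CKO and 11.76 in control CD8SP cells, 8.51 in CKO and 11.56 in control OT-I CD8SP cells, and 11.08 in TCRβ-negative CKO cells. The CKO array was the lower in all 4 pairs, with differences of -0.28 in the DP, -0.43 in the CD4SP, -1.18 in the CD8SP and -3.05 in the OT-I pair, and the fitted difference was -1.23 (SE 0.49, adjusted p = 0.44). H2ac21 had pair differences of -0.56 in the DP, -0.75 in the CD4SP, -1.86 in the CD8SP and -2.69 in the OT-I pair and a fitted difference of -1.47 (SE 0.39, adjusted p = 0.293). H2ac8 was also lower in the CD8SP (-1.17) and OT-I (-2.68) pairs. The H2A genes closest to or above 0 were H2ac11 (-0.55), H2ac6 (-0.14) and H2ac18 (0.61). H2ac18 had a level of 4.54 in CKO and 4.27 in control DP cells, 4.60 in CKO and 4.60 in control CD4SP cells, 4.00 in CKO and 3.28 in control CD8SP cells, 4.35 in CKO and 2.91 in control OT-I CD8SP cells, and 3.84 in TCRβ-negative CKO cells. Its CKO level was the higher in both CD8SP pairs and its lowest level was in OT-I control cells, where the median of the members was highest. H2ac18 had a fitted difference of 0.61 (SE 0.28, adjusted p = 0.5). Its neighbouring copy H2ac19, which shares an unbroken run of 169 of the 250 bases before the start, had pair differences of 0.038 in the DP, -0.50 in the CD4SP, -0.62 in the CD8SP and -1.76 in the OT-I pair.

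The H2B genes were split. The median genotype difference of 8 genes was -0.97, with 5 below 0 and 3 above. H2bc3 gave 1.77 in CKO and 2.40 in control DP cells, -0.79 in CKO and 0.21 in control CD4SP cells, 1.04 in CKO and 3.07 in control CD8SP cells, -0.33 in CKO and 2.89 in control OT-I CD8SP cells, and 2.17 in TCRβ-negative CKO cells. Its difference was -0.63 in the DP, -1.0001 in the CD4SP, -2.02 in the CD8SP and -3.22 in the OT-I pair, the CKO array being the lower in each pair, and the fitted value was -1.72 (SE 0.45, adjusted p = 0.287). H2bc18, whose window holds the octamer element shown above, gave 6.85 in CKO and 7.12 in control DP cells, 4.85 in CKO and 4.84 in control CD4SP cells, 6.08 in CKO and 7.98 in control CD8SP cells, 4.32 in CKO and 7.79 in control OT-I CD8SP cells, and 7.11 in TCRβ-negative CKO cells. In CD4SP cells its genotypes lay within 0.014 of each other, whereas the CKO level was lower in the CD8SP (-1.90) and OT-I (-3.46) pairs, and the fitted difference was -1.41 (SE 0.60, adjusted p = 0.474). H2bc14 had -1.35 (SE 0.49, adjusted p = 0.416) and H2bc8 -1.28 (SE 0.33, adjusted p = 0.287). On the other side stood H2bc6 (0.29), H2bc4 (0.26) and H2bc21 (0.023). H2bc4 had a level of 3.51 in CKO and 2.63 in control DP cells, 2.51 in CKO and 1.88 in control CD4SP cells, 2.93 in CKO and 1.93 in control CD8SP cells, 1.04 in CKO and 2.52 in control OT-I CD8SP cells, and 3.84 in TCRβ-negative CKO cells. The CKO array was the higher in the DP, CD4SP and CD8SP pairs and the lower in the OT-I pair, with differences of 0.88 in the DP, 0.63 in the CD4SP, 1.00 in the CD8SP and -1.48 in the OT-I pair. For 4 of the genes outside the common profile, H1f2, H2ac6, H2bc4 and H2bc21, the human counterparts (formerly HIST1H1C, HIST1H2AC, HIST1H2BC and HIST2H2BE) are known to be made also as transcripts with a poly(A) tail; whether that bears on these values was not tested.

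Of the 8 H3 genes, 7 were below 0 in the genotype fit, with a class median of -1.16, and all 7 were more than 2-fold lower in CKO cells of both CD8SP pairs. H3c14 gave 7.62 in CKO and 7.87 in control DP cells, 5.39 in CKO and 5.83 in control CD4SP cells, 7.06 in CKO and 8.65 in control CD8SP cells, 5.49 in CKO and 8.65 in control OT-I CD8SP cells, and 7.86 in TCRβ-negative CKO cells. The control arrays of CD8SP and OT-I CD8SP cells were the highest, and the pair differences were -0.25 in the DP, -0.44 in the CD4SP, -1.59 in the CD8SP and -3.16 in the OT-I pair, with a fitted difference of -1.36 (SE 0.51, adjusted p = 0.424). H3c7 (-1.31) and H3c8 (-1.26) were close to it, and H3c4 (-0.92) and H3c3 (-0.88) had smaller differences. H3c15, the neighbouring copy of H3c14 with the nearly identical window printed above, gave -0.098 in CKO and -0.21 in control DP cells, 0.26 in CKO and 0.33 in control CD4SP cells, -0.61 in CKO and -1.62 in control CD8SP cells, 0.83 in CKO and -1.42 in control OT-I CD8SP cells, and -0.11 in TCRβ-negative CKO cells. Its order of arrays was the opposite: OT-I CKO cells were highest and the CD8SP and OT-I control cells lowest. The H3c15 differences were 0.11 in the DP, -0.062 in the CD4SP, 1.01 in the CD8SP and 2.26 in the OT-I pair, the fitted difference was 0.83 (SE 0.42, adjusted p = 0.517), and the interaction estimate was 1.61 (SE 0.51, adjusted p = 0.315). H3c15 and H2ac18 were detected on all 9 arrays, and what besides the named gene their probes read was not tested.

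**Figure D3:**
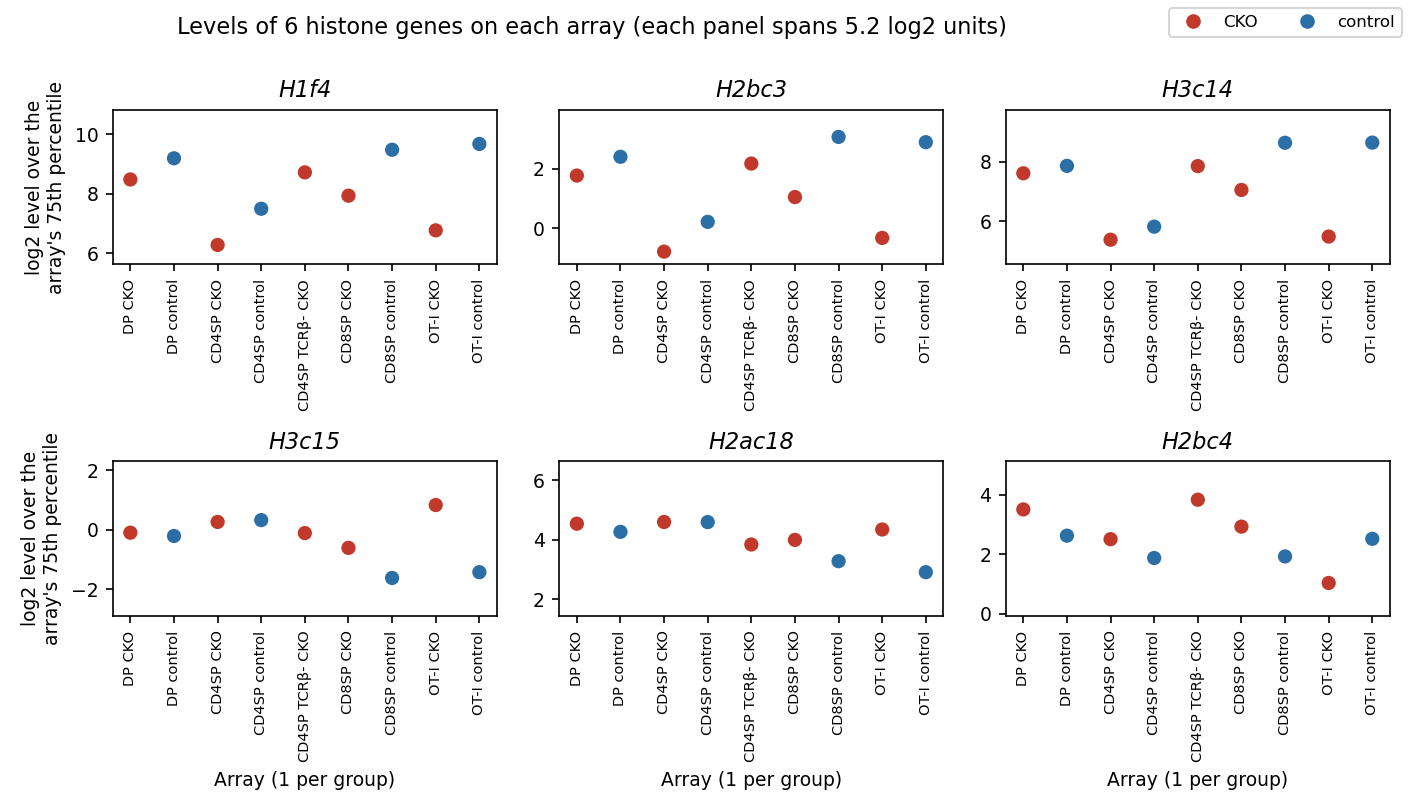
Level (log2 over the array's 75th percentile, vertical axis, each panel spanning 5.2 log2 units) of 6 histone genes on each of the 9 arrays (horizontal axis, red CKO, blue control, 1 point per array). H1f4, H2bc3 and H3c14 are lowest in CD4SP CKO and OT-I CKO cells among the arrays shown, H3c15 and H2ac18 are lowest in the CD8SP control arrays, and H2bc4 changes the order of its genotypes in OT-I cells.

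All 8 H4 genes were below 0 in the genotype fit, with a median of -1.29, and 6 of 8 in the CD8SP pair and 7 of 8 in the OT-I pair were more than 2-fold lower. H4c11 gave 6.35 in CKO and 6.71 in control DP cells, 4.15 in CKO and 4.68 in control CD4SP cells, 5.74 in CKO and 7.43 in control CD8SP cells, 4.07 in CKO and 7.39 in control OT-I CD8SP cells, and 6.59 in TCRβ-negative CKO cells. The CKO array was the lower in each pair, with differences of -0.36 in the DP, -0.53 in the CD4SP, -1.69 in the CD8SP and -3.32 in the OT-I pair, and the fitted difference was -1.47 (SE 0.52, adjusted p = 0.401). H4c4 (-1.38) and H4c3 (-1.32) were similar, H4c9 (-1.11) and H4c17 (-0.83) were nearer to 0, and H4c8 was -0.25 (SE 0.20, adjusted p = 0.636). H4c8 varied by 0.66 over all 9 arrays, against 2.11 to 3.36 for the other H4 genes.

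Of the genes set apart, H2ac1, H2bc1 and H1f10 had differences as large as the S phase members, and H1f6, H1f7 and H1f8 had smaller ones. H2ac1, an H2A gene known from testis, was 3.02 in CKO and 4.09 in control DP cells, 0.97 in CKO and 1.40 in control CD4SP cells, 1.87 in CKO and 4.43 in control CD8SP cells, 0.78 in CKO and 3.12 in control OT-I CD8SP cells, and 2.97 in TCRβ-negative CKO cells, and its fitted difference was -1.60 (SE 0.40, adjusted p = 0.27). H2bc1, likewise known from testis, had a fitted difference of -1.21 (SE 0.51, adjusted p = 0.466), and its probe kept the same profile as those of H3c7, H3c14, H4c11 and H2bc14. H1f10 was well above background in CKO cells only on the DP and TCRβ-negative arrays, and in control cells on the DP, CD8SP and OT-I arrays. Its fitted difference was -1.84 (SE 0.37, adjusted p = 0.184) and rests partly on signals that were not well above background. In the CD8SP pair H1f10 was 2.94 log2 units lower in the CKO. This is the plain difference, since the CKO signal (-3.23) lay above that array's detection floor (-3.81). Counted from the detection floor, H1f10 was at least 0.67 lower in the OT-I pair. H1f6, the testis linker histone, was -0.57 (SE 0.32, adjusted p = 0.55) and H1f8, the oocyte linker histone, 0.076 (SE 0.22, adjusted p = 0.901), and both were detected on all 9 arrays. H1f7, known from spermatids, was detected only on the 2 DP arrays, with a fitted value of -0.16.

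The population contrasts asked how the histone genes differ along thymocyte maturation. In the fit over both genotypes, CD4SP minus DP had a median of -1.54 over the 46 members against -0.0020 over all genes, and 43 of 46 were below 0. limma called 0 members higher (2.18% of all genes) and 2 lower (0.927%), and at an unadjusted p below 0.05, 0 were higher and 28 lower, where 7.59% of all genes were lower. H2ac6 fell in CD4SP relative to DP cells, with a difference of -1.73 (SE 0.30, adjusted p = 0.0453). The levels of H2ac6 were 0.23 in CKO and 0.75 in control DP cells, -1.08 in CKO and -1.40 in control CD4SP cells, -1.30 in CKO and -1.17 in control CD8SP cells, -1.78 in CKO and -1.56 in control OT-I CD8SP cells, and 0.92 in TCRβ-negative CKO cells. Both DP arrays and the TCRβ-negative array lay above all CD4SP and CD8SP arrays. The adjusted p was 0.105 with the slide as a block and 0.0602 with no detection filter. It was 0.0751 with the 75th percentile taken over probes well above background on all arrays. The H2ac6 call is lost under each of these settings. H2bc22 fell as well, with a fitted value of -2.96 (SE 0.36, adjusted p = 0.0217). It was not well above background on either CD4SP array, and counted from the detection floor it was at least 2.37-fold lower, from means of -5.09 on the CD4SP and -2.13 on the DP arrays. With normexp background correction the H2bc22 value was -0.43 (adjusted p = 0.26), a setting that differs in foreground statistic, correction and offset together. The count of 2 also depends on the OT-I pair: without it, 18 members were called lower, where 2.56% of all genes were, and these 18 include H1f4, H1f5, H2bc3, H3c14 and H4c11.

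Within each genotype the same direction was seen array against array. Counts past 2-fold within a genotype took every signal as it was, without the detection floor, unlike those of the CKO and control pairs. CD4SP minus DP had a median over the 40 genes of -1.49 in the CKO and -1.56 in the control, with 34 of 40 (85%) and 25 of 40 (62.5%) more than 2-fold lower, where 9.7% and 12.3% of all genes were. CD8SP minus DP had a fitted median of 0.0090 (all genes 0.030), with 0 members called higher (2.42%) and 1 called lower (1.04%): H2ac6 fell, with a difference of -1.73 (SE 0.30, adjusted p = 0.0438). At an unadjusted p below 0.05, 0 were higher and 7 lower, where 12.5% and 8.4% of all genes were. The H2ac6 call is lost without the CD4SP pair (adjusted p = 0.0696), without the OT-I pair (adjusted p = 0.0541) and with the slide as a block (adjusted p = 0.262). It is also lost with the 75th percentile taken over probes well above background on all arrays (adjusted p = 0.055) and with no detection filter (adjusted p = 0.0581). The fitted value is an average over the genotypes. In the CKO the median of CD8SP minus DP was -0.55, with 38 of 40 genes below 0, against -0.066 and 11040 of 20284 for all genes. In the control it was 0.49, with 29 of 40 above 0, against 0.22 and 11999 of 20284 for all genes. The CKO contrast spans both slides and the control contrast lies on slide 1, so that slide and genotype cannot be told apart here. OT-I CKO minus CD4SP CKO had a median of -0.051, with 1 of 40 genes more than 2-fold higher (4.78% of all genes) and 2 more than 2-fold lower (7.57%).

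OT-I CD8SP cells were set against CD8SP cells, a contrast in which the receptor and the age of 14 against 8 weeks go together. The fitted median was -0.65 against 0.026 over all genes, and limma called 0 members higher (0.0394%) and 0 lower (0.197%). An unadjusted p below 0.05 was found for 0 higher and 1 lower, against 3.34% and 3.59% of all genes. OT-I minus CD8SP had a median of -1.23 in the CKO, with 27 of 40 genes more than 2-fold lower (9.11% of all genes), and of -0.059 in the control, with 0 of 40 more than 2-fold higher (5.57% of all genes) or lower (6.9%). Both CKO arrays lie on slide 2, whereas the control arrays lie on different slides, so that slide and genotype cannot be told apart in this comparison either.

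CD4SP cells without surface TCRβ, sorted from the CKO alone, had histone levels nearer to those of DP CKO cells than to those of CD4SP CKO cells. The array of these cells has no control, so the fitted contrasts assign it the genotype effect fitted in the 4 pairs, and the differences within the CKO are given beside them. Against DP, limma called 0 members in either direction, as for all genes (0% each way). An unadjusted p below 0.05 was found for 0 higher and 1 lower, against 0.508% and 1.14% of all genes. The fitted median was 0.56 against 0.044 over all genes, and the median within the CKO was 0.17, with 0 of 40 genes more than 2-fold higher (2.33% of all genes) or lower (2.99%). Against CD4SP cells the fitted median was 2.00 (all genes 0.0022), with 0 members called higher (0.232%) and 0 lower (1.17%), although 32 were higher at an unadjusted p below 0.05, where 8.16% of all genes were. The lowest adjusted p there was 0.0642, for H2ac6. Within the CKO, 33 of 40 genes were more than 2-fold higher in TCRβ-negative than in CD4SP cells, as were 2166 of all 20284 genes, with a median of 1.71 for the histone genes. Rag1, a DP stage gene, was 8.07 in the TCRβ-negative cells, against 2.88 in CD4SP CKO cells, and the summed signal of 8 DP stage genes was 2123 against 133 times the array's 75th percentile.

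Most histone genes of a core class (H2A, H2B, H3 or H4) are known to have similar coding sequences, which were not compared here. Groups of probes gave nearly the same profile. Of 1035 pairs of tested members, 22 kept a nearly constant distance over the 9 arrays, with an SD of the difference below 0.1. These join 17 members into 4 sets: H2ac10, H2ac11, H2ac12, H2ac15, H2ac19, H2ac20 and H2ac22; H2bc1, H2bc14, H3c7, H3c14 and H4c11; H4c4, H4c12 and H4c14; and H3c3 with H3c4. The second set holds genes of 3 histone classes. The probe sequences were not used here, and whether a probe reads 1 gene or several was not tested. With 1 member kept per set, 33 members were left and the median genotype difference was -1.11, close to -1.08 with all of them.

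The 7 H2A genes of the first set were also the brightest, reaching 60.1% to 96.7% of the scanner's saturation value on their brightest array, although no spot was flagged as saturated. Their genotype differences were -0.72 to -0.55, and in the OT-I pair they were -1.81 for H2ac12 to -1.28 for H2ac11. H2ac12 gave 12.44 in CKO and 12.38 in control DP cells, 11.10 in CKO and 11.66 in control CD4SP cells, 12.29 in CKO and 12.87 in control CD8SP cells, 10.99 in CKO and 12.80 in control OT-I CD8SP cells, and 12.20 in TCRβ-negative CKO cells. H2ac15 offers a comparison within a gene: its bright probe had a mean difference over the 4 pairs of -0.59, and its dimmer probe, at most 19.9% of saturation, -1.35. The 2 probes of H4c14 differed in the same direction, -1.29 for the bright one and -1.66 for the dim one, and those of H4c12 were -1.29 and -1.48. In H4c9 the dimmer probe had the smaller difference, -0.54 against -1.11. The sign of this mean was the same for both probes of each of the 4 genes, but in the DP pair it was not: the bright probe of H2ac15 gave 0.12 and the dimmer one -0.19, and those of H4c9 gave -0.23 and 0.36. Without the 7 brightest members the median genotype difference was -1.21.

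**Figure D4:**
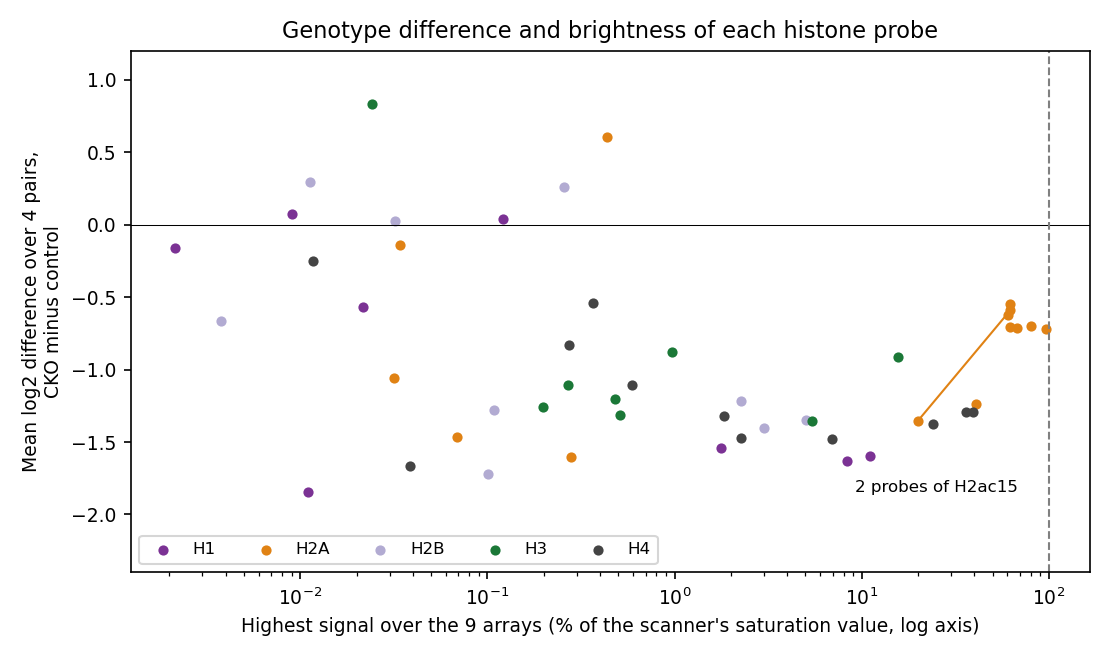
Mean CKO minus control difference over the 4 pairs (log2, vertical axis) of each probe of the 46 tested histone genes against its highest signal over the 9 arrays (percent of the scanner's saturation value, log axis), 1 point per probe, by class. The 7 H2A probes above 60% of saturation lie between -0.72 and -0.55, and the line joins the 2 probes of H2ac15, at -0.59 and -1.35.

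The histone genes can be set beside genes that act in the same process, from lists chosen with results of these data already known. The S phase list holds enzymes and helicase subunits of DNA replication and their regulators, 24 of 25 tested. All 24 were below 0 in the genotype fit, with a median of -0.99. limma called 0, and 8 were lower and 0 higher at an unadjusted p below 0.05, where 5.05% and 5.88% of all genes were. The medians by pair were -0.041 in DP, -0.037 in CD4SP, -1.34 in CD8SP and -2.43 in OT-I cells. Like the histone genes, these genes were lower in the CD8SP and OT-I pairs, where 21 and 24 of 24 were more than 2-fold lower. In CD8SP minus DP the 2 lists differed. The fitted median there was 0.73 for the S phase genes and 0.0090 for the histone genes, against 0.030 over all genes. limma called 0 of the S phase genes in that contrast. Among the lowest were Cdc6, a replication licensing factor, at -1.81 (SE 0.50, adjusted p = 0.304), Pole, a replicative polymerase (-1.44), Ccna2, the S phase cyclin (-1.42), and Gins2, a helicase subunit (-1.34). Across the 9 arrays, 28 of the 40 histone genes (70%) had a Pearson r over 0.9 with the median of the S phase list, where 5.91% of all genes tested had. This describes 9 arrays of 1 sample each that share population and genotype. Members of the sets with the same profile were each counted here, so the 28 are not separate profiles. The share with 1 member kept per set was not computed. At the other end were H3c15 (r = -0.91), H2ac18 (r = -0.90) and H2bc21 (r = -0.27).

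**Figure D5:**
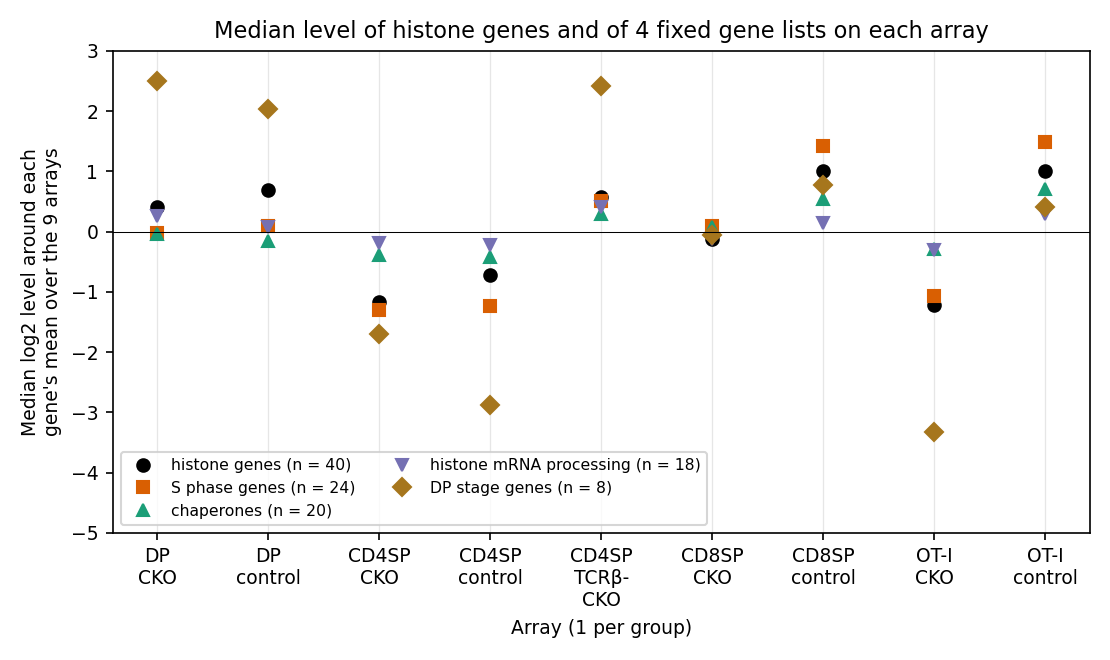
Median log2 level around each gene's own mean (vertical axis) on each of the 9 arrays (horizontal axis), for 40 histone genes, 24 S phase genes, 20 histone chaperones, 18 genes of histone mRNA synthesis and processing and 8 DP stage genes, 1 symbol per list. The histone and the S phase medians are both below 0 on the CD4SP arrays and the OT-I CKO array and above 0 on the CD8SP and OT-I control arrays. On the DP arrays they differ: the histone medians are 0.41 (CKO) and 0.68 (control), and the S phase medians -0.021 and 0.086.

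Histone chaperones, which hand histones to DNA, had a median genotype difference of -0.32 over 20 genes, 15 below 0. limma called 0, and 2 of 20 were lower and 0 higher at an unadjusted p below 0.05, against the same shares of all genes. The lowest were Asf1b, which carries H3 with H4, at -1.21 (SE 0.46, adjusted p = 0.427), Chaf1a at -1.08 and Chaf1b at -0.85, subunits of the assembly factor CAF-1, Nap1l1 at -0.93 and Nasp at -0.70. Other factors that act at replication were nearer to 0, among them the CAF-1 subunit Rbbp4 (-0.30) and the FACT subunits Ssrp1 (-0.33) and Supt16 (-0.017). In the OT-I pair Asf1b was -2.77, Chaf1a -3.19 and Chaf1b -2.17. The highest were Atrx (0.50), Cabin1 (0.37), Nap1l4 (0.25), Daxx (0.15) and Asf1a (0.056).

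Genes of histone mRNA synthesis and 3′ end processing had a median of -0.073 over 18 genes, 11 below 0 and 7 above. limma called 0, with 1 of 18 lower and 1 higher at an unadjusted p below 0.05, about the share of all genes. Slbp, the stem-loop binding protein, had pair differences of 0.027 in the DP, 0.34 in the CD4SP, -1.31 in the CD8SP and -1.85 in the OT-I pair and a fitted value of -0.70 (SE 0.41, adjusted p = 0.56). Zfp473, a zinc finger protein of the U7 pathway, was lowest, at -1.32 (SE 0.35, adjusted p = 0.287), followed by Slbp, Eri1, a 3′ exonuclease for histone mRNA (-0.34), Lsm11 (-0.25) and Hinfp, a regulator of H4 genes (-0.24). Npat, the coactivator at the histone clusters, was well above background on only 3 arrays, the DP arrays and the TCRβ-negative array. Its difference was 0.19 in the DP pair. The Npat differences of -0.57 in the CD4SP, -0.94 in the CD8SP and 1.31 in the OT-I pair lie between signals not well above background. Its fitted value of 0.00081 rests partly on these signals. Casp8ap2 was 0.081. On the higher side were Tut7, which uridylates histone mRNA (0.57), Lsm1 (0.21), Cpsf3, the endonuclease (0.18), and Lsm10 (0.087).

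Replacement variants, which are made outside S phase as well, had a median of -0.42 over 9 genes, 8 below 0. limma called 0, and 0 differed at an unadjusted p below 0.05. H2ax was -1.06, H2aj -0.79, H2az1 -0.71, Cenpa -0.46 and H2az2 -0.42, whereas H3f3b was 0.0088. The H2aj probe was about as bright as those of the brightest H2A members and had a similar profile. Its level was 12.74 in CD8SP control and 10.63 in OT-I CKO cells, where that of H2ac10 was 12.65 and 10.79. What besides H2aj this probe reads was not tested. In the OT-I pair H2ax was -2.71, H2az1 -2.12 and H3f3b -0.36.

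Genes of other cell types and stages also differed between the arrays compared, and their part in the histone values was not tested. The 8 DP stage genes were all lower in OT-I CKO than in OT-I control cells (median -3.39; summed signal 73.8 against 639) and in CD8SP CKO than in CD8SP control cells (median -0.78; 506 against 937), so that the pairs with the largest histone differences also differed in these. In the CD4SP pair 7 of 8 were higher in the CKO (median 1.505, summed signal 133 against 69.7), and Ptcra was lower (-1.08). NK cell markers summed to 0.166 in CD4SP CKO and 7.59 in CD4SP control cells, and to 4.92 in CD8SP CKO and 4.99 in CD8SP control cells. Granulocyte markers summed to 4.76 in DP CKO and 15.1 in DP control cells and lay between 4.53 and 9.03 on the other arrays, and S100a8, a granulocyte gene, had a level of -4.17 in DP CKO and 1.33 in DP control cells. Myeloid and dendritic markers summed to 43.3 to 145 over the 9 arrays, with 145 in CD8SP CKO and 90.9 in CD8SP control cells. B cell markers summed to 3.13 to 14.7, and stroma and epithelium markers to 0.313 to 2.78. Erythroid markers summed to 20.4 in OT-I CKO and 8.61 in OT-I control cells, with 4 of the 4 tested higher in the CKO and 3 more than 2-fold (median 1.91), and to 4.90 to 14.2 on the other arrays.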

How the data were processed

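Total RNA of sorted thymocytes was hybridised to 9 one-colour Agilent arrays. The deposited scanner files hold background-corrected signal intensities, made by the authors with Agilent Feature Extraction 10.7.1.1, per the file headers; the deposited series table holds the same intensity divided by the array's 75th percentile. The labels' protocols describe a biotinylated cRNA, although the label given is Cy3, and the primer of the labelling is not given in the sources used here. Levels are log2 intensity minus the array's 75th percentile. Symbols came from RefSeq accessions (tables of GRCm38.p6), and the brightest probe stood for a gene. Genes well above background on at least 2 arrays were tested in limma 3.58.1 (R 4.3.3) with population and genotype as terms, and p-values were adjusted by Benjamini-Hochberg over 20284 genes, with a threshold of 0.05. The fit was tested on simulated data. Pairs of CKO and control arrays were compared without a test against 2-fold. The detection floor took the place of a signal that was not well above background and lay below that floor. Each group is 1 array, so the number of arrays limits the precision. Normexp used the median foreground signal. The members and gene lists were chosen with earlier results of these data known. Genes named are up to 3 highest and 3 lowest fitted genotype differences per class, members called in a contrast, the genes set apart, and up to 5 per direction of each list, with Slbp, Npat, Casp8ap2, Asf1b and Chaf1b. A gene that the rule names in the S phase list is not reported here. Genes named outside that rule were chosen after their values were seen. Alternatives covered scaling, background correction, probe and detection rules, membership, slide and each pair left out.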

Additional observations from a re-analysis of the deposited data

Results flagged for a closer look

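H2bc4 differed in direction between both CD8SP pairs: CKO minus control was 1.00 (log2) in CD8SP cells and -1.48 in OT-I CD8SP cells. Each value is a difference between 2 arrays past 2-fold, and the difference between the pairs was not tested. The CD8SP pair spans both slides, and the OT-I pair differs from it in receptor and age.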

How the results depend on the processing

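No histone gene was called for genotype or for the interaction under any alternative run, and the median genotype difference stayed below 0. A block by replicate number was not possible because the labels give no such numbers; the population, which pairs CKO with control, is already a term of the fit. Membership by the array's own gene names was not run, since the files used hold no such column. In CD4SP minus DP, 1 member was called lower, in place of 2, with the 75th percentile over detected probes (0.818% of all genes). The count was also 1 with no detection filter (0.534%), the slide as a block or no CD8SP pair (0.37% each). Without the OT-I pair it was 18 (2.56%). With normexp it was 3 (H1f2, H2ac6, H2bc8), where 1.69% of all genes were called lower. With genes detected on all arrays it was also 3 (H1f2, H2ac1, H2ac6), where 1.47% were. H2bc22 was not called with normexp and not tested with detection on all arrays. In CD8SP minus DP, 0 members were called lower, in place of 1, with that percentile, no filter, the slide block, no CD4SP pair or no OT-I pair. The count there was 3 with normexp and 2 with genes detected on all arrays. The shares of all genes under these settings are not given here for CD8SP minus DP or TCRβ-negative minus CD4SP. In TCRβ-negative minus CD4SP, 1 member was called higher, in place of 0, with normexp or detection on all arrays. With normexp the H2B median was -0.55, the members past 2-fold lower were 1 for DP and 0 for CD4SP cells, and those past 2-fold higher were 0 for CD8SP cells. In the DP pair, 1 was lower with detection on all arrays and 0 without the genes set apart. At 1.5-fold, 1 was higher and 6 lower in the DP pair, 1 higher and 9 lower in the CD4SP pair, and 4 higher in the CD8SP pair. The shares of all genes past 1.5-fold, or past 2-fold with normexp or detection on all arrays, are not given here. These counts therefore cannot be set against all genes. Without the 7 brightest members, also chosen after seeing the data, the H2A median was -1.06. With 1 member per set of the same profile, chosen after seeing the data, 33 members were left. Of these, 21 were more than 2-fold lower in the OT-I pair, as were 34 of 45 with all members and 13.8% of all genes. With the slide as a block the interaction median was -1.77. Leaving out 1 pair at a time, the interaction median was -1.77 to -0.97 and the genotype median -1.34 (without DP) to -0.52 (without OT-I). Over the same omissions the class medians were -1.95 to -0.90 for H1, -0.95 to -0.35 for H2A, -1.45 to -0.61 for H3 and -1.63 to -0.75 for H4. The list medians were -0.59 to -0.11 for replacement variants, -1.35 to -0.47 for S phase genes and -0.48 to -0.11 for chaperones, each smallest without the OT-I pair, and -0.21 to 0.091 for mRNA synthesis and processing, above 0 without the OT-I or the CD8SP pair. Uncalled genotype differences near 0 changed sign: H1f8 was -0.0037 with normexp and -0.11 to 0.18 with a pair left out, H1f2 was -0.18 with the slide block and -0.18 to 0.24 with a pair left out (-0.013 without DP), H1f7 was 0.099 with the slide block and -0.31 to 0.099 with a pair left out, and H2bc21 was -0.16 to 0.11. The causes were not tested.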
